A study of Homo sapiens with 2 samples.

Results

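The cells described here are PC9 cells, an EGFR-mutant human lung adenocarcinoma line, that carried an sgRNA against ATF4, set against cells of the same culture that carried a non-targeting sgRNA. Barcodes with fewer than 1000 gene UMIs, with fewer than 500 genes or with over 20% of their UMIs from mitochondrial genes were dropped. A remaining barcode was given to its leading sgRNA if that guide reached 5 UMIs and made up 80% or more of the barcode's sgRNA UMIs. Of 10847 barcodes 10142 were kept, and 5556 of these were given to one of 36 sgRNAs. The ATF4 group holds 859 cells, 15.5% of the assigned cells (exact 95% interval 14.5% to 16.4%). The control group holds 700 cells, 12.6% of them (11.7% to 13.5%), where both intervals cover counting error only.

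The culture was infected with a pooled lentiviral sgRNA library at a rate near 40% with 8 ug/ml polybrene, and was selected in 1 ug/ml puromycin from day 2 to day 6. The labels give day 7 for a first harvest and day 8 for the experiment. Every group therefore shares the line, the infection, the selection and the time, and differs only in the sgRNA. The series is titled as a knockout screen, while its protocol text also speaks of knockdown with dCas9, so the kind of perturbation cannot be told from the labels. All cells came from 1 culture and 1 pair of libraries, 1 of mRNA 3' ends and 1 of sgRNAs read directly from the same droplets. The values below are sums over the cells of each sgRNA, with 6 ATF4 sgRNAs and 4 controls, so every p-value rests on how sgRNAs of 1 target vary among themselves. No separate culture was sampled, and this variation may be technical.

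ATF4 is a basic leucine zipper transcription factor and the main effector of the integrated stress response. Kinases that sense amino acid shortage, unfolded protein, heme lack or double-stranded RNA phosphorylate the initiation factor eIF2, which lowers translation in general while ATF4 translation rises. ATF4 then binds C/EBP-ATF response elements, usually with a C/EBP partner, and switches on genes for amino acid synthesis and import, tRNA charging and stress feedback. Since ATF4 is controlled to a large part at translation and protein breakdown, its transcript level is only a partial readout of its activity.

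Sequence matches to the response element motif are shown for 5 of the 10 genes that fell and hold one, and for ASNS. These 5 are the ones with a match wholly before the gene start. Binding was not measured. No match was found in the listed promoters of PSAT1, PHGDH, MTHFD2, PCK2, CTH and DDIT4, which fell as well. The windows below are read from RefSeq promoters of GRCh38.p14, 5′ to 3′ on the strand of the gene, and the capitals mark TGATGNAA or, on the other strand, its reverse complement. The window of S100P lies at chr4:6693735-6693782 on the plus strand, CAMP at chr3:48223425-48223472 on the plus strand, HERPUD1 at chr16:56931946-56931993 on the plus strand and CHAC1 at chr15:40953242-40953289 on the plus strand. That of IARS lies at chr9:92293698-92293730 on the minus strand, and ASNS, a textbook ATF4 target that did not pass the test here, at chr7:97872449-97872496 on the minus strand.
S100P: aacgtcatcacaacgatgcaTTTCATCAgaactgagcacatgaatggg
CAMP: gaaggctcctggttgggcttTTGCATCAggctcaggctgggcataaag
HERPUD1: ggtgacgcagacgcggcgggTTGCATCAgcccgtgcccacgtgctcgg
CHAC1: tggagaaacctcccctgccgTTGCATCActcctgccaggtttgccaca
IARS: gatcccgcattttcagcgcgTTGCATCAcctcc
ASNS: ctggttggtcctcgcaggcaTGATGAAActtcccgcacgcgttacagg
The match lies 123 to 116 bases before the start of S100P, 50 to 43 before that of CAMP, 176 to 169 before that of HERPUD1, 209 to 202 before that of CHAC1, 13 to 6 before that of IARS and 68 to 61 before that of ASNS.

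The ATF4 transcript itself fell. ATF4 (ENSG00000128272, chr22:39520559-39522686, GRCh38.p14) stood at 266, 274, 246, 332, 258 and 186 CPM (the gene's share of all gene UMIs summed for that sgRNA, on the usual CPM scale) with ATF4 sgRNAs 1 to 6. The controls 1 to 4 stood at 376, 372, 343 and 355 CPM. All 6 ATF4 sgRNAs lay below the lowest control, with sgRNA 4 close beneath it and sgRNA 6 lowest. The log2 fold change was -0.51 ± 0.070 (SE), with an adjusted p of 6.6e-07 in edgeR's quasi-likelihood test with Benjamini-Hochberg adjustment over 11570 genes. Against the 18 sgRNAs for CTNNB1, JUN and CTCF, a comparison that uses no control sgRNA, it was -0.53 (adjusted p 5.1e-12). The means were 260 ± 47.0 CPM (SD, n = 6), 362 ± 15.5 (SD, n = 4) and 371 ± 18.9 (SD, n = 18). In summed counts, a lower level in every cell and a mixture of changed and unchanged cells cannot be told apart.

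Across all genes 203 of 11570 changed, or 1.75%, at an adjusted p under 0.05. Of these 133 were lower (1.15%) and 70 higher (0.605%). For 199 of the 203 all 6 ATF4 sgRNAs lay on the called side of the control mean. The 203 were picked by a test on these same sums, so this count is no separate support. The median log2 fold change of all tested genes was 0.003, with 5700 below 0. In 200 genes all 6 ATF4 sgRNAs lay below all 4 controls (1.73%), and in 275 genes above them (2.38%). These shares are the background for the genes said below not to overlap. The shares called, and the 5700 genes below 0, are the background for the counts of each list below. Against the 18 other sgRNAs 347 genes were lower (3.0%) and 287 higher (2.48%). Because the ATF4 sgRNAs enter both comparisons their lists are not independent, and 120 of the 133 lower genes, or 90.2%, were also lower there (34.6% of the 347). Leaving out control sgRNA 1, the deepest control, brought the 203 calls to 133.

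Genes of amino acid supply and of the stress response fell with the ATF4 sgRNAs. Of 84 tested genes on 5 lists of known ATF4 pathway genes (serine and one-carbon enzymes, other amino acid enzymes, amino acid transporters, cytosolic aminoacyl-tRNA synthetases, stress effectors), 22 fell and none rose in edgeR's test. The 22 are 26.2% of the 84, beside 1.15% of all tested genes. DESeq2 called 20 of the 84 lower and 1 higher (PPP1R15A), and at an unadjusted p under 0.05 edgeR had 40 lower and 1 higher. The median log2 fold change of the 84 was -0.25, with 67 below 0. Their summed level was 6344, 6664, 6020, 6493, 6680 and 6891 CPM with ATF4 sgRNAs 1 to 6. It was 7819, 7642, 7796 and 7041 CPM with the controls, of which control sgRNA 4 was lowest. The 12 CTNNB1 and JUN sgRNAs lay between 7626 and 7967 CPM. Among the 6 CTCF sgRNAs, 5 lay between 7387 and 7807, while CTCF sgRNA 3 stood at 6419 CPM, inside the range of the ATF4 sgRNAs. Without CTCF sgRNA 3, an alternative added after the data were seen, 725 genes changed against the other 17 sgRNAs. The order of the ATF4 sgRNAs differed between transcript and pathway: sgRNA 6 had the lowest ATF4 level but the highest summed pathway level.

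**Figure D1:**
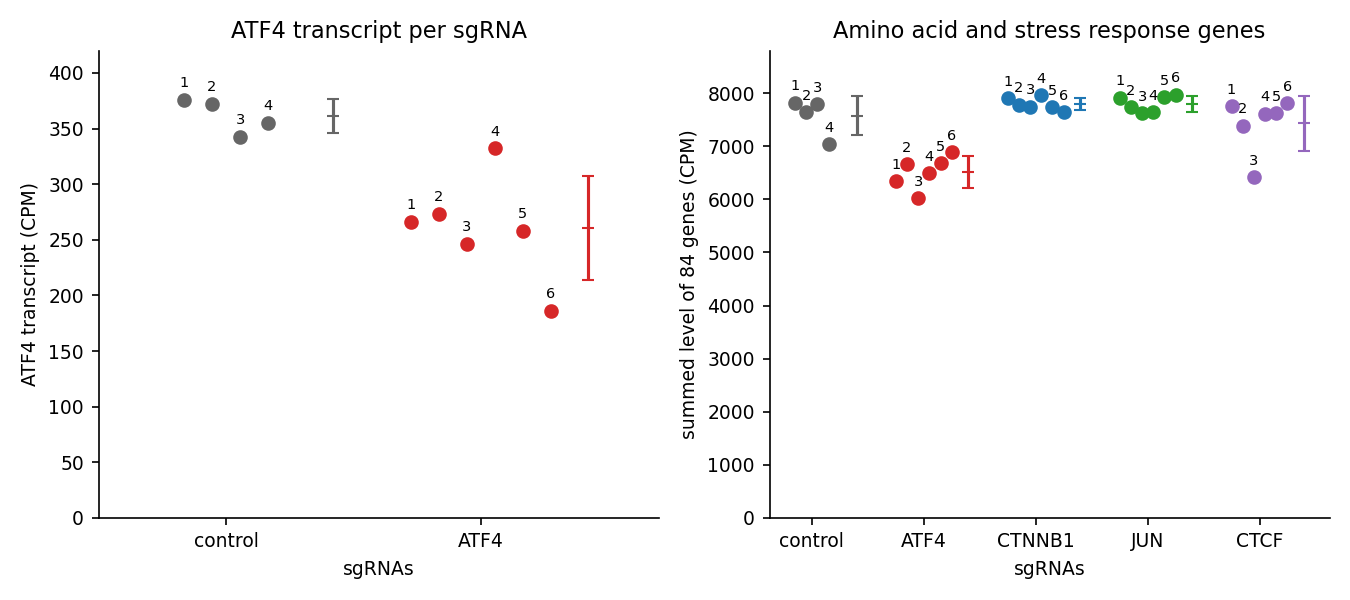
Left, ATF4 transcript (CPM, linear axis from 0) for each control and ATF4 sgRNA; right, the summed level of the 84 pathway genes (CPM) for the sgRNAs of controls, ATF4, CTNNB1, JUN and CTCF. Points are sgRNAs with their numbers, and the bars beside them are mean and SD. All 6 ATF4 sgRNAs lie below the 4 controls in both panels, and CTCF sgRNA 3 at 6419 CPM lies among the ATF4 sgRNAs.

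Enzymes of serine synthesis and mitochondrial one-carbon metabolism fell together. Of 11 tested genes 5 fell (45.5%, beside 1.15% of all tested genes) and none rose, with a median of -0.25. PSAT1, the transaminase of the serine pathway, was at 150, 167, 158, 172, 167 and 194 CPM with the ATF4 sgRNAs and at 248, 240, 251 and 241 CPM with the controls. Its groups did not overlap, and the log2 fold change was -0.56 ± 0.059 (adjusted p 1.5e-10). PHGDH, the first enzyme of the pathway, ranged from 386 to 477 CPM (median 414) against 594, 559, 567 and 545 CPM in the controls. It fell by 0.46 ± 0.057 on the log2 scale (adjusted p 2.7e-08), again without overlap. MTHFD2, the mitochondrial folate dehydrogenase, ranged from 137 to 165 CPM (median 148) against 214, 227, 217 and 166 CPM. Control sgRNA 4 lay just above the highest ATF4 sgRNA, and MTHFD2 fell by 0.50 ± 0.069 (adjusted p 5e-07). SHMT2, the mitochondrial serine hydroxymethyltransferase, fell by 0.40 (adjusted p 0.0011), and PSPH, the phosphatase that completes serine, by 0.26 (adjusted p 0.026). The PSPH call was lost without ATF4 sgRNA 3 (adjusted p 0.081), control sgRNA 1 (0.21) or control sgRNA 3 (0.11). ALDH1L2 and GLDC were too low to be tested.

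Among 15 tested enzymes of asparagine, cysteine, proline, aspartate and alanine metabolism 2 fell (13.3%, beside 1.15% of all tested genes) and none rose (median -0.18). CTH, the enzyme that releases cysteine in transsulfuration, was at 6.64, 7.95, 7.80, 8.90, 5.00 and 7.52 CPM against 16.8, 17.2, 18.9 and 16.4 CPM. Every ATF4 sgRNA was far below the lowest control, and the log2 fold change was -1.23 ± 0.221 (adjusted p 0.00015). PCK2, the mitochondrial PEP carboxykinase, ranged from 68.6 to 101 CPM (median 78.8) against 126, 121, 140 and 109 CPM, also without overlap, and fell by 0.61 ± 0.080 (adjusted p 1.7e-07). ASNS, asparagine synthetase, was low in this culture, with 1.59 to 3.89 CPM against 3.88, 8.35, 5.97 and 4.82 CPM. Its log2 difference of -0.76 ± 0.310 did not pass the test (adjusted p 0.24). GPT2 and PYCR1, which make alanine and proline, did not pass against the controls (-0.38 and -0.27) but did against the other 18 sgRNAs (adjusted p 0.00084 and 0.00054). The difference between these comparisons was not tested.

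Of 13 amino acid transporters 3 fell (23.1%, beside 1.15% of all tested genes) and none rose (median -0.26). SLC1A5, a glutamine carrier, ranged from 60.5 to 81.1 CPM (median 65.8) against 89.4, 95.3, 93.0 and 92.5 CPM and fell by 0.48 ± 0.084 (adjusted p 8e-05). SLC3A2 and SLC7A5, the chains of the large neutral amino acid exchanger, fell by 0.30 (adjusted p 0.0014) and 0.49 (adjusted p 0.0089). None of the 3 overlapped with the controls, but the SLC7A5 call was lost without control sgRNA 2 (adjusted p 0.064). SLC7A11, the cystine carrier, was at 67.1 to 108 CPM against 98.2 to 125 CPM, and its difference of -0.28 did not pass (adjusted p 0.062). It passed with no filter on low counts, with the looser sgRNA rule (3 UMIs and 60%) and with ATF4 and control sgRNAs fitted alone (0.025 to 0.044), and without ATF4 sgRNA 4 or 6 or control sgRNA 4 (0.023 to 0.046).

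Of 20 cytosolic aminoacyl-tRNA synthetases 6 fell (30%, beside 1.15% of all tested genes, median -0.16). Of 16 mitochondrial enzymes none passed edgeR's or DESeq2's test (median -0.02, 1 gene with an unadjusted p under 0.05), a count near the overall share. The mitochondrial list was also lower in level, at 368 CPM in sum with ATF4 sgRNA 1 against 2133 CPM for the cytosolic list. The difference between the 2 lists was not tested. GARS, for glycine, was at 123, 119, 107, 149, 153 and 156 CPM against 197, 185, 202 and 144 CPM and fell by 0.45 ± 0.070 (adjusted p 7.8e-06). Control sgRNA 4 lay inside the ATF4 range. CARS, for cysteine, fell by 0.39 (adjusted p 0.00074), and EPRS, for glutamate and proline, by 0.27 (adjusted p 0.0019). SARS, IARS and LARS, for serine, isoleucine and leucine, fell by 0.26, 0.28 and 0.27 (adjusted p 0.014, 0.020 and 0.028). Some of these calls were lost when a single sgRNA was left out, with log2 differences of -0.27 to -0.22 in those fits. EPRS was lost without control sgRNA 1 (adjusted p 0.058), and SARS without ATF4 sgRNA 3 (0.056) or control sgRNA 2 (0.060). IARS was lost without ATF4 sgRNA 3 (0.071), control sgRNA 1 (0.099) or control sgRNA 3 (0.11), and LARS without ATF4 sgRNA 3 or 5 or control sgRNA 1, 2 or 3 (0.056 to 0.14).

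Stress effectors and feedback regulators fell in 6 of 25 tested cases (24%, beside 1.15% of all tested genes), none rose, and 24 of the 25 were below 0 (median -0.29). NUPR1, a small stress-induced chromatin protein, stood at 8.11, 1.59, 15.6, 12.8, 14.99 and 23.3 CPM against 29.2, 35.8, 32.8 and 59.7 CPM. ATF4 sgRNA 2 had 628639 gene UMIs in all, so its 1.59 CPM is a value at the floor of counting. The groups did not overlap, and the log2 fold change was -1.29 ± 0.203 (adjusted p 1.1e-05). DDIT4, an inhibitor of mTORC1, stood at 48.0, 87.5, 69.6, 83.0, 67.7 and 94.9 CPM against 136, 136, 128 and 122 CPM, with a log2 fold change of -0.81 ± 0.099 (adjusted p 2e-08). EIF4EBP1, the inhibitor of cap-dependent translation, ranged from 298 to 356 CPM (median 332) against 412, 438, 423 and 370 CPM and fell by 0.35 (adjusted p 9.9e-06). CHAC1, which degrades glutathione, fell by 0.94 ± 0.205 (adjusted p 0.0033). Its groups overlapped, and its call was lost without ATF4 sgRNA 4 (adjusted p 0.052) or control sgRNA 1 (0.088). RHBDL1, a rhomboid protease relative, fell by 0.90 (adjusted p 0.0043). XPOT, the tRNA exporter, fell by 0.49 (adjusted p 0.022), a call lost without ATF4 sgRNA 1 or 3 or control sgRNA 1 or 2 (0.053 to 0.13).

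Several classical stress genes did not pass against the controls in the edgeR fit, and for some of them the call depended on the setting. The kinase-like regulator TRIB3 had a log2 difference of -0.29 (adjusted p 0.072), the ATF4 partner CEBPB -0.22 (0.050, just over the threshold), the leucine sensor SESN2 -0.51 (0.13), the secreted factor GDF15 -0.34 (0.15) and the death-linked factor DDIT3 -0.19 (0.73). TRIB3 passed with no filter on low counts, with the looser sgRNA rule and with ATF4 and control sgRNAs fitted alone (0.0071 to 0.017), and without ATF4 sgRNA 2 or 5 (0.031 and 0.0496). CEBPB passed under these 3 settings, in DESeq2 and with DESeq2 size factors (0.014 to 0.049), and without ATF4 sgRNA 2 or control sgRNA 4 (0.033 and 0.011). PPP1R15A, the subunit that dephosphorylates eIF2, was the 1 member above 0, at 74.1 to 114 CPM against 60.7 to 78.8 CPM. Its difference of 0.35 missed the threshold (adjusted p 0.051 in edgeR). It passed at 0.39 in DESeq2 (adjusted p 0.032), with no filter on low counts (0.0068), with ATF4 and control sgRNAs fitted alone (0.022), and without ATF4 sgRNA 3 or 4 or control sgRNA 1 (0.016 to 0.037). It also passed at 0.27 against the other 18 sgRNAs (adjusted p 0.014).

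With at most 10% mitochondrial UMIs, which leaves 363 ATF4 and 246 control cells, 7 of the 22 pathway genes passed. They were PSAT1, PHGDH, MTHFD2, CTH, PCK2, DDIT4 and NUPR1, whose calls also held in G1 cells, under stricter (10 UMIs and 90%) and looser sgRNA rules and without any single sgRNA. DESeq2 gave no adjusted p for CTH, as for 28 of the 203 genes. In the 495 ATF4 and 411 control cells scored as G1, SHMT2, SLC7A5, EPRS, IARS, LARS, CHAC1, RHBDL1 and XPOT did not pass (adjusted p 0.098 to 0.45). Under the stricter sgRNA rule, which leaves ATF4 sgRNA 2 with 12 cells and out of the fit, SHMT2, SLC3A2, SLC7A5, IARS, LARS and RHBDL1 did not pass (adjusted p 0.052 to 0.13).

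**Figure D2:**
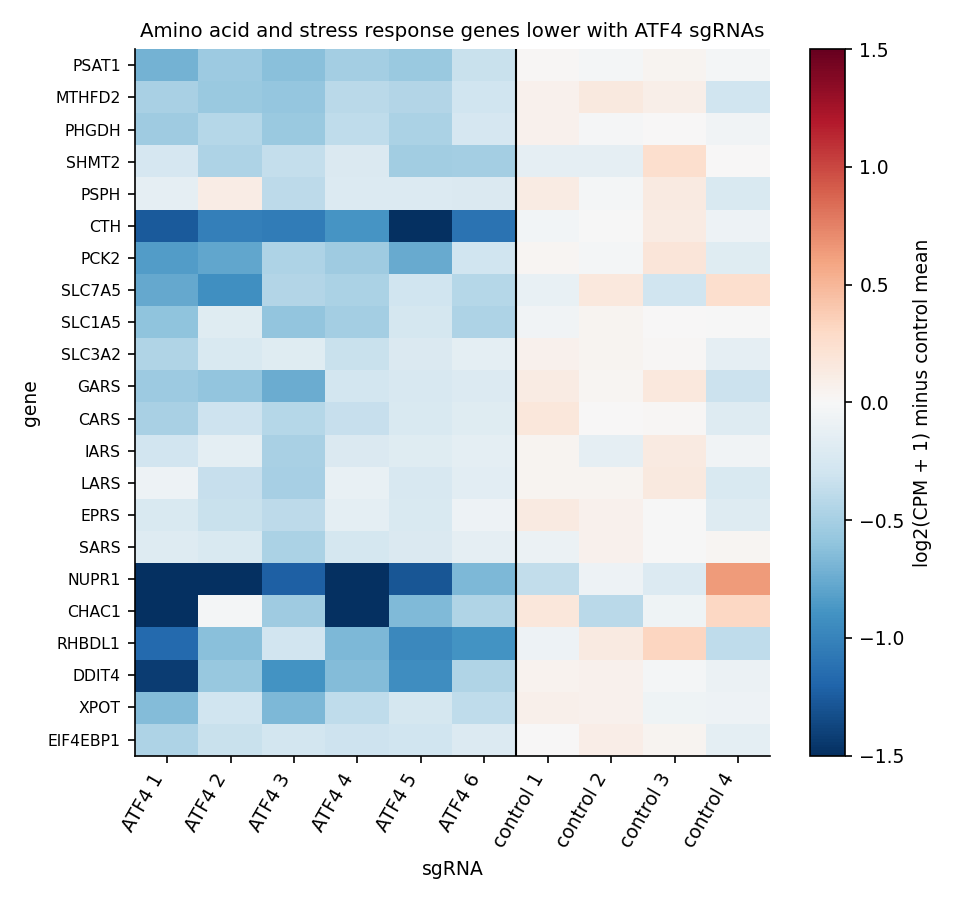
Difference of each sgRNA from the control mean, on the log2(CPM + 1) scale, for the 22 pathway genes that fell; columns are the 6 ATF4 and 4 control sgRNAs and the color runs from -1.5 (blue) to 1.5 (red), with values beyond drawn at the end color. CTH and NUPR1 are the darkest rows, and control sgRNA 4 is bluish for MTHFD2 and GARS.

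Upstream of ATF4 and among its relatives few genes passed. Of 35 tested eIF2 kinases, eIF2 subunits and leucine zipper relatives 2 fell (5.71%, beside 1.15% of all tested genes) and none rose (median 0.01). These were NFE2L1, the proteasome gene activator, at -0.53 (adjusted p 0.023), and the eIF2 beta subunit EIF2S2 at -0.19 (adjusted p 0.025). Both calls were lost without ATF4 sgRNA 3 or control sgRNA 1 or 3, and also without ATF4 sgRNA 4 for NFE2L1 and ATF4 sgRNA 1 for EIF2S2 (adjusted p 0.055 to 0.16 over these). NFE2L1 did not pass with the stricter sgRNA rule (0.11), nor EIF2S2 with no filter on low counts (0.051) or in G1 cells (0.098). Neither passed under the mitochondrial limit (0.58 and 0.15). The kinase gene EIF2AK4 had a difference of 0.10 (adjusted p 0.81) and the partner CEBPG -0.05 (0.91). Against the other 18 sgRNAs 4 genes of this list were lower and 3 higher.

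The endoplasmic reticulum chaperone list showed 3 falls in 19 (15.8%, beside 1.15% of all tested genes, median -0.05). HERPUD1, a part of the machinery that degrades misfolded proteins, ranged from 44.5 to 68.3 CPM (median 52.4) against 82.7, 78.6, 79.1 and 105 CPM. It fell by 0.62 ± 0.096 without overlap (adjusted p 9.2e-06). HSPA5, the main chaperone of that compartment, and the transcription factor XBP1 each fell by 0.32 (adjusted p 0.0049 and 0.00018). Of 11 heat shock genes 2 fell (18.2%), namely HSPA8 by 0.52 ± 0.060 (adjusted p 4.4e-09) and HSPA1A by 0.50 (adjusted p 0.0022). HSPA8, the constitutive cytosolic chaperone, stood at 223 to 286 CPM (median 259) against 364, 370, 373 and 340 CPM, and the groups did not overlap. None of 10 mitochondrial chaperones and proteases passed edgeR's or DESeq2's test against the controls (at an unadjusted p under 0.05, 3 were lower and 1 higher), while 3 were lower against the other 18 sgRNAs. The HSPA5 and XBP1 calls were lost when cells had to have at most 10% mitochondrial UMIs (0.24 and 0.084), and those of HSPA5 and HSPA1A with the stricter sgRNA rule (0.12 and 0.051).

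**Figure D3:**
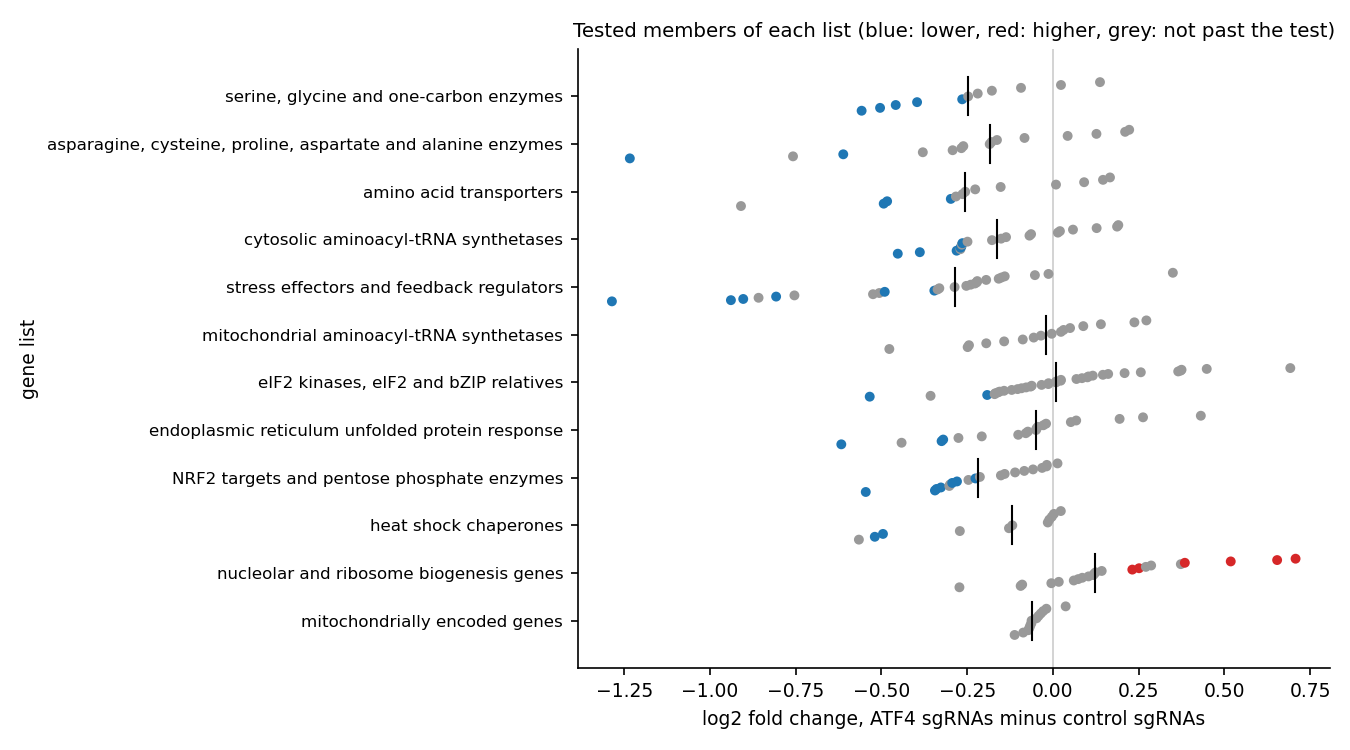
Log2 fold change of ATF4 against control sgRNAs (x axis) for each tested member of 12 gene lists (y axis), with the list median as a black bar. Points are blue where the gene fell, red where it rose and grey where it did not pass; the 5 amino acid and stress lists have medians from -0.29 to -0.16 and the nucleolar list 0.12.

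Antioxidant genes of the NRF2 program and the pentose phosphate pathway fell in 7 of 20 cases (35%, beside 1.15% of all tested genes). None rose, and 19 were below 0 (median -0.22). The aldo-keto reductase AKR1C1, which reduces steroids and lipid aldehydes, was at 312, 382, 349, 367, 397 and 330 CPM against 504, 552, 496 and 472 CPM and fell by 0.55 ± 0.078 (adjusted p 1.4e-06). TKT, transketolase, ranged from 746 to 968 CPM (median 856) against 1091, 1078, 1029 and 1124 CPM and fell by 0.34 (adjusted p 1.1e-05). AKR1C3 fell by 0.33 and AKR1B10 by 0.34 (adjusted p 1.1e-05 and 0.00037), and PRDX1, a peroxide reductase, by 0.28 (adjusted p 1.1e-05). All of these 5 genes lay without overlap below the controls. GCLM and TXNRD1, for glutathione and thioredoxin, fell by 0.29 and 0.23 (adjusted p 0.023 and 0.025), with overlap. Their calls were both lost without ATF4 sgRNA 1 or control sgRNA 1 or 3, GCLM also without ATF4 sgRNA 3 and TXNRD1 without ATF4 sgRNA 5 or control sgRNA 2 (adjusted p 0.053 to 0.15 over these). NQO1, the textbook NRF2 target, differed by -0.03 (adjusted p 0.89), and NFE2L2, the gene of NRF2 itself, by -0.10 (0.59). AKR1C1, GCLM and TXNRD1 did not pass with at most 10% mitochondrial UMIs (adjusted p 0.094 to 0.34), GCLM and TXNRD1 not in G1 cells (0.098 and 0.10), and AKR1B10, GCLM and TXNRD1 not with the stricter sgRNA rule (0.091 to 0.20). AKR1C1 and AKR1C3 are close paralogs, so their reads may have been split between them.

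Secreted and cytosolic defense genes of mucosal surfaces were also lower. Their list was chosen, like the others, with earlier results of these data known, so its median is not ranked against theirs. All 10 tested members were below 0 (median -0.48) and 5 fell (50%, beside 1.15% of all tested genes). CAMP, the cathelicidin antimicrobial peptide, stood at 1.48, 3.18, 3.90, 5.93, 6.11 and 4.30 CPM against 22.2, 21.1, 22.4 and 15.4 CPM, the deepest fall of any gene named here. Its log2 fold change was -2.21 ± 0.227 (adjusted p 7.8e-11). The lowest of the ATF4 values for CAMP rest on very few UMIs, and DESeq2 gave it no adjusted p. S100P, a calcium-binding protein, stood at 377, 379, 463, 459, 442 and 492 CPM against 671, 687, 685 and 692 CPM and fell by 0.65 ± 0.056 (adjusted p 3.9e-14). LCN2, the iron-siderophore binder, fell by 0.42 (adjusted p 0.00084), the protease inhibitor CSTB by 0.22 (adjusted p 0.0061) and the calprotectin chain S100A9 by 0.45 (adjusted p 0.016). The S100A9 call was lost without control sgRNA 3 (adjusted p 0.070) and in DESeq2 (0.15), LCN2 with at most 10% mitochondrial UMIs (0.058) and CSTB with the stricter sgRNA rule (0.059). All 5 genes lay without overlap below the controls. The summed level of 8 epithelial markers was lower too, at 10251 to 10919 CPM against 10923 to 12364 CPM. Of the 8, 6 were below 0, and only KRT19 and KRT8 were called, lower by 0.22 and 0.19 (adjusted p 0.0030 and 0.0041). Both keratin calls were lost without control sgRNA 4 (adjusted p 0.070 and 0.061) and with the stricter sgRNA rule (0.059 and 0.20). Keratins made up most of the marker sum. Over all cells of each group, EPCAM stood at 285 CPM with ATF4 sgRNAs against 272 CPM in controls, CLDN4 at 137 against 126 and CDH1 at 51.4 against 51.8. MUC1 was lower, at 10.4 against 14.9 CPM, as were KRT7 at 2370 against 2503 and KRT18 at 4202 against 4369. The part of epithelial state in the falls of the mucosal genes was not tested. Another keratin, KRT10, rose by 0.31 (adjusted p 0.00040), a call lost with the stricter sgRNA rule (0.059) and in G1 cells (0.11).

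Genes on the list of nucleolar and ribosome biogenesis genes moved the other way. Of 22 tested genes on it 6 rose, beside 0.605% of all tested genes, and none fell (median 0.12). RSL24D1, a factor of large ribosomal subunit assembly that is not on this list, fell and kept its call in every alternative. Its values are given with the promoters below. The direction thus holds for this list and not for every gene of ribosome assembly. ODC1, the rate-limiting enzyme of polyamine synthesis and a growth gene on this list, was at 181, 162, 169, 140, 156 and 148 CPM against 120, 117, 119 and 110 CPM. It rose by 0.38 ± 0.080 without overlap (adjusted p 0.0015). TAF1A, a part of the RNA polymerase I initiation complex, stood between 31.8 and 36.1 CPM (median 33.4) against 22.5, 19.1, 24.9 and 12.5 CPM and rose by 0.65 ± 0.141 (adjusted p 0.0028). Against the other 18 sgRNAs its difference was 0.30 (adjusted p 0.052). GPATCH4 rose by 0.52 (adjusted p 0.0049), PA2G4 by 0.25 (0.0076), NME1 by 0.23 (0.016) and MYBBP1A by 0.71 (0.024). PA2G4 was lost without control sgRNA 4 (adjusted p 0.058), and NME1 without ATF4 sgRNA 1 or control sgRNA 1, 2 or 4 (0.054 to 0.22). MYBBP1A was lost without ATF4 sgRNA 4 or control sgRNA 1, 2 or 4 (0.074 to 0.19). In G1 cells ODC1, TAF1A, PA2G4, NME1 and MYBBP1A did not pass (adjusted p 0.059 to 0.21), which left GPATCH4. With at most 10% mitochondrial UMIs GPATCH4, PA2G4, NME1 and MYBBP1A did not pass (0.21 to 0.53), which left ODC1 and TAF1A. NME1 and MYBBP1A did not pass with the stricter sgRNA rule (0.059 and 0.20), nor MYBBP1A with the looser one (0.13). Control sgRNA 4 also had the lowest summed level of this list, 4370 CPM against 4912 to 5044 CPM in the other 3 controls and 5005 to 5590 CPM with the ATF4 sgRNAs.

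Genes that host small nucleolar RNAs in their introns, a list chosen after its values were seen, rose in 4 of 26 cases with none lower (median 0.11). Of all tested genes 0.605% rose. ZFAS1 stood at 1775, 2063, 1744, 1494, 1676 and 1510 CPM against 1354, 1301, 1274 and 1168 CPM, with a log2 fold change of 0.38 ± 0.055 (adjusted p 1.8e-06). GAS5 and SNHG8 rose by 0.28 and 0.35 (adjusted p 0.0014 and 0.0019), and SNHG5 by 0.45 (adjusted p 0.0042). SNHG8 and SNHG5 did not pass under the 10% mitochondrial limit (adjusted p 0.11 and 0.28). GAS5 overlapped with the controls through ATF4 sgRNA 4, and the other 3 did not. Of 78 cytosolic ribosomal protein genes 2 fell (2.56%, beside 1.15% of all tested genes), RPS9 and RPL3, by 0.16 and 0.14 (adjusted p 0.026 and 0.029). Of the 78, 62 were below 0 (median -0.04), and at an unadjusted p under 0.05 edgeR had 13 lower and 1 higher. The RPS9 call was lost without ATF4 sgRNA 1 or 5 or control sgRNA 1 or 4 (0.054 to 0.12). RPS9 and RPL3 were both lost with no filter on low counts, with the stricter sgRNA rule, under the mitochondrial limit and in G1 cells (0.056 to 0.21).

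**Figure D4:**
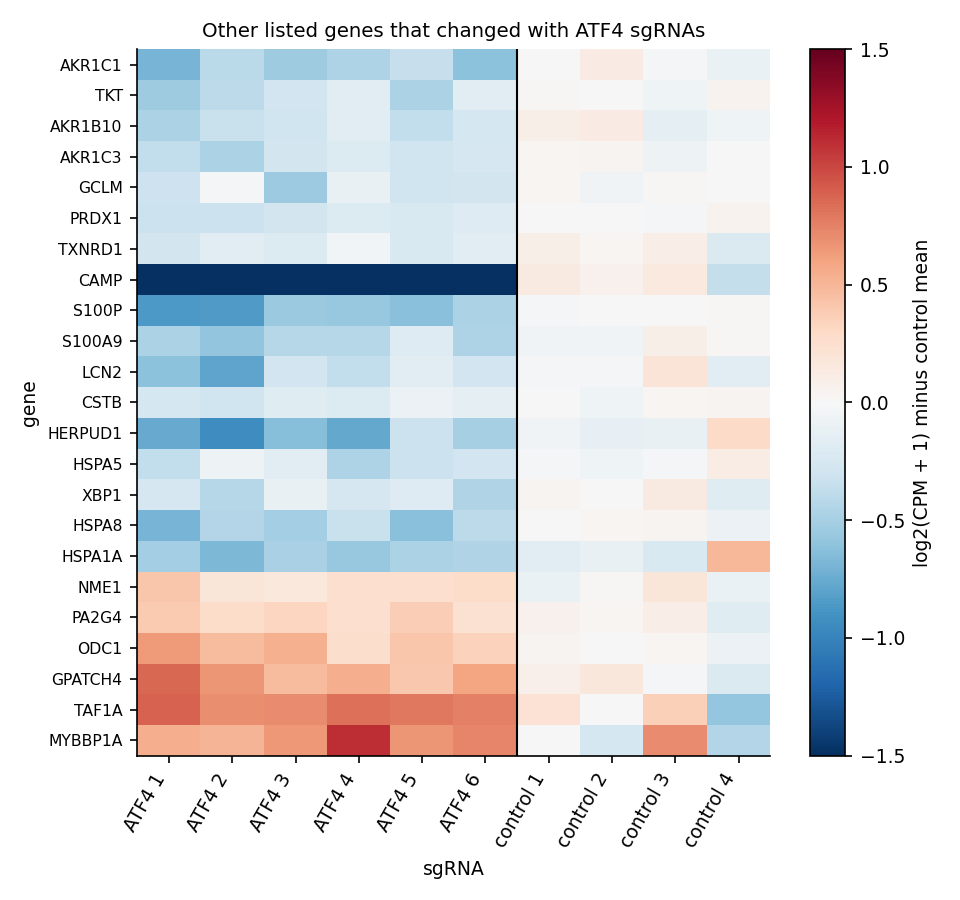
Difference of each sgRNA from the control mean, on the log2(CPM + 1) scale, for the antioxidant, mucosal, chaperone and nucleolar genes that changed; columns are the 6 ATF4 and 4 control sgRNAs, and the color runs from -1.5 (blue) to 1.5 (red). CAMP lies beyond the blue end in all 6 ATF4 sgRNAs, and the 6 nucleolar genes are red in all 6.

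Genes outside the lists also fell. LINC01133, a long non-coding RNA, was at 3.89 to 9.76 CPM (median 5.99) against 14.2, 21.6, 16.4 and 21.2 CPM and fell by 1.37 ± 0.220 (adjusted p 1.4e-05). PIP5KL1, a phosphoinositide kinase relative, fell by 1.03 (adjusted p 4.7e-05) and TIMP4, a metalloproteinase inhibitor, by 1.01 (0.0021). SLC16A4, a carrier of the monocarboxylate transporter family, fell by 0.82 (4e-05), LOXL1, a collagen and elastin crosslinker, by 0.76 (1.1e-05), and catalase (CAT) by 0.71 (4.4e-05). IDH1, cytosolic NADP-dependent isocitrate dehydrogenase, stood at 20.7 to 43.0 CPM (median 35.2) against 58.7, 60.4, 69.1 and 57.8 CPM, without overlap, and fell by 0.77 ± 0.110 (adjusted p 1.4e-06). RRAGA, a GTPase that couples amino acids to mTORC1, fell by 0.66 (adjusted p 0.0049), but against the other 18 sgRNAs its difference was -0.32 (adjusted p 0.11). TIMP4, CAT and RRAGA did not pass with the stricter sgRNA rule (adjusted p 0.064 to 0.11), TIMP4 and CAT not in G1 cells (0.15 and 0.17), and CAT and RRAGA not with at most 10% mitochondrial UMIs (0.074 and 0.34). Among called genes with a mean of at least 10 CPM that were higher in all 6 ATF4 sgRNAs, AC010327.4 rose most, by 0.98 (adjusted p 0.00094, and 0.083 with the stricter sgRNA rule), followed by the YAP-linked gene ANKRD1 by 0.79 (0.042). ANKRD1 was lost without ATF4 sgRNA 1, 4 or 5 or any single control (adjusted p 0.054 to 0.17), with the stricter sgRNA rule, in G1 cells and under the mitochondrial limit (0.17 to 0.83).

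Hypoxia genes fell in 2 of 12 cases (16.7%, beside 1.15% of all tested genes). EGLN3, a prolyl hydroxylase, fell by 0.92 (adjusted p 0.0063) and VEGFA, the angiogenic growth factor, by 0.47 (0.023). EGLN3 was lost without control sgRNA 1 (0.064), and VEGFA without ATF4 sgRNA 3 or 4 or control sgRNA 1 or 3 (0.053 to 0.32). Of 9 polyamine, urea cycle and nitrogen genes 2 fell (22.2%). GFPT1, which starts hexosamine synthesis, fell by 0.46 (adjusted p 0.00063). ASS1, argininosuccinate synthase, fell by 0.39 (0.0069), a call lost without control sgRNA 1 (0.067). EGLN3, GFPT1 and ASS1 did not pass with the stricter sgRNA rule (0.059 to 0.16), EGLN3 and ASS1 not in G1 cells (0.072 and 0.11), VEGFA, GFPT1 and ASS1 not under the mitochondrial limit (0.056 to 0.53), and VEGFA not with the looser sgRNA rule (0.083).

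Cell cycle genes did not pass. None of 42 tested S phase genes, 54 G2/M genes, 13 p53 targets or 13 mitochondrially encoded genes was called by edgeR or DESeq2 against the controls. At an unadjusted p under 0.05, edgeR had 1 S phase and 3 G2/M genes higher, and 2 p53 targets and 1 mitochondrially encoded gene lower. Against the other 18 sgRNAs, 5 G2/M genes, 1 p53 target and 1 mitochondrially encoded gene were lower. Among all 11570 genes 1440 had an unadjusted p under 0.05. The share of cells scored as G1 was 57.2 ± 3.98% with the ATF4 sgRNAs (SD, n = 6) and 58.1 ± 3.30% with the controls (SD, n = 4). The exact two-sided permutation test gave p = 0.714 (0.900 after adjustment over 7 cell measures). ATF4 cells had a median of 3462 genes against 3350 (means of sgRNA medians; exact permutation p = 0.0476, adjusted 0.267) and 12826 UMIs against 12221 (exact permutation p = 0.0762, adjusted 0.267). Their median mitochondrial share was 10.6% against 11.1% (exact permutation p = 0.200, adjusted 0.467).

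Genes near ATF4 on chromosome 22 were looked at because an sgRNA acts at its site. Of 8 other tested genes within 500 kb only RPL3 was called, with a difference of -0.14 (adjusted p 0.029), and its call was lost without ATF4 sgRNA 1, 2 or 5 or control sgRNA 1, 2 or 3 (0.055 to 0.11). Beyond ATF4 towards the end of the long arm 1 of 97 tested genes fell, a count near the share of 1.15% among all tested genes. That gene was TSPO, lower by 0.22 (adjusted p 0.011, and 0.089 without control sgRNA 3). TSPO did not pass with the stricter sgRNA rule, under the mitochondrial limit or in G1 cells (adjusted p 0.083 to 0.17). Of the 97 genes 62 were below 0 (median -0.085). Without control sgRNA 2 this median was -0.052. Of 191 genes before ATF4 the median was -0.001. By sgRNA, the median difference of the 97 genes from the control mean ran from -0.12 with ATF4 sgRNA 3 to -0.009 with ATF4 sgRNA 6, and from -0.014 to 0.022 with the controls. All 6 ATF4 sgRNAs were thus below 0. Among the 18 sgRNAs for genes on other chromosomes, the CTNNB1 sgRNAs 1 to 5 spanned 0.017 to 0.036, the JUN sgRNAs -0.003 to 0.13 and the CTCF sgRNAs 0.010 to 0.055. CTNNB1 sgRNA 6, with 32 cells, was at -0.12. No test was made of this shift.

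The share of promoters with a match to the response element motif is a description and no more. RefSeq promoters, from 250 bases before to 50 bases after the start, were found for 105 of the 133 genes that fell. Fewer than 80% had an entry, so a comparison of shares over these genes is void. TGATGNAA on either strand was in 10 of the 105 and in 2 of 63 promoters of genes that rose. It was in 148 of 9249 tested genes (1.60%) and in 1003 of 27305 promoters of the table (3.67%). Among the pathway lists it was in 4 of 17 promoters of genes that fell and in 11 of 49 of those not called, among them ASNS, BCAT1, AARS and ATF3. The genes that fell and hold it were CAMP, CARS, CHAC1, DNASE2, HERPUD1, IARS, LINC01133, RSL24D1, S100P and SLC3A2. RSL24D1, a factor of large ribosomal subunit assembly, fell by 0.45 ± 0.063 (adjusted p 1.1e-06).

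Total gene counts ran from 628639 (ATF4 sgRNA 2, 49 cells) to 3371762 (ATF4 sgRNA 4, 256 cells) and from 1038200 (control sgRNA 4, 77 cells) to 3869915 (control sgRNA 1, 300 cells). Kept cells had 1011 to 39824 gene UMIs. Lung alveolar markers were close to absent in both groups, at no more than 1.07 and 2.89 CPM in sum per sgRNA. The 8 epithelial markers were abundant in sum, through the keratins above all. MUC1 among them was low, at 10.4 CPM over all ATF4 cells and 14.9 CPM over all control cells. Fibroblast and endothelial markers summed to at most 3.25 CPM in any sgRNA of the 2 groups, and immune markers to 13.3 to 30.8 CPM. All 10847 barcodes were distinct. Doublets were not called. Of the ATF4 cells, 4 held at least 5 UMIs of an sgRNA for another target.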

How the data were processed

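Gene and sgRNA counts per barcode (UMIs) were deposited by the authors as 10x matrices and, per the file headers, come from Cell Ranger 6.1.2. The genome build was hg38, per the submitters' processing notes, and no other setting is given in the sources used here. Cells were filtered and assigned by the thresholds given above with scanpy 1.11.5, and cell cycle phases were scored with 43 S and 54 G2/M genes. Counts were summed over the cells of an sgRNA, and the 34 sums of 20 or more cells were fitted together (edgeR 4.0.16 in R 4.3.3, TMM, default filter on low counts, quasi-likelihood test, Benjamini-Hochberg). The biological coefficient of variation was 4.64%. Cell measures were compared by exact permutation over 210 arrangements (smallest p 0.00476). The members and lists were chosen with earlier results of these data known. Named genes are ATF4, tested list members, the 10 smallest p, and genes within 500 kb of ATF4. Also named are the 15 largest rises and falls that passed, with all 6 ATF4 sgRNAs on 1 side of the control mean and a mean of at least 10 CPM. snoRNA hosts, ribosomal protein genes and TSPO were named after their values were seen. Alternatives were DESeq2 1.42.0, its size factors, no filter, stricter (10 UMIs, 90%) and looser (3 UMIs, 60%) sgRNA rules, at most 10% mitochondrial UMIs, G1 cells only, ATF4 and control sgRNAs alone, and each sgRNA left out.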

Additional observations from a re-analysis of the deposited data

Results flagged for a closer look

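Of 88 groups of sgRNA values tested with Dixon's criterion, which divides the gap to the nearest value by the range, 3 held a flagged value. Chance flags about 1 in 20 groups. TIMP4 stood at 21.7 CPM with control sgRNA 1, while the nearest control was at 20.4 CPM. This gap was small in level but made up 0.84 of the range of the controls. LOXL1 stood at 52.98 CPM with control sgRNA 4, while the nearest control was at 86.0 CPM, and its call against the controls held without that sgRNA. MYBBP1A stood at 24.6 CPM with ATF4 sgRNA 4, while the nearest ATF4 sgRNA was at 18.6 CPM, and its call was lost without it (adjusted p 0.15 in edgeR's test).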

How the results depend on the processing

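The ATF4 transcript stayed lower and past the threshold in every alternative, with log2 fold changes from -0.63 (without ATF4 sgRNA 4) to -0.41 (without ATF4 sgRNA 6) when single sgRNAs were left out. The 203 genes called against controls became 94 with the stricter sgRNA rule, 64 with at most 10% mitochondrial UMIs, 110 in G1 cells and 308 with ATF4 and control sgRNAs fitted alone. They ranged from 133 (without control sgRNA 1) to 234 (without ATF4 sgRNA 6) when single sgRNAs were left out. The 22 pathway genes lower became 7 with at most 10% mitochondrial UMIs and 14 in G1 cells, and ranged from 16 to 24 with single sgRNAs left out. The 634 genes called against the other 18 sgRNAs became 321, 223 and 304 with the stricter rule, the mitochondrial limit and G1 cells, and ranged from 437 to 661. These 3 alternatives hold fewer cells: 527, 363 and 495 in the ATF4 group. The stricter rule also leaves ATF4 sgRNA 2 with 12 cells, under the minimum of 20, so its counts come from 5 ATF4 sgRNAs. The share of calls that were higher went from 34.5% to 17.2% with the mitochondrial limit and to 23.8% without control sgRNA 4. Of 83 named genes that passed, 23 kept their call in every alternative that gave an adjusted p (DESeq2 gave none for 28 of the 203), ATF4, CAMP, CTH, DDIT4, NUPR1, PSAT1, PHGDH, MTHFD2, PCK2 and S100P among them. DDIT3, not called, turned to 0.22 in G1 cells. Differences in cell measures, none past the threshold, turned sign: mitochondrial share to 0.233 points with the mitochondrial limit, S share to -0.249 points with the looser rule and G2/M share to -0.849 with the mitochondrial limit. With single sgRNAs left out these differences ranged from -2.12 to 0.451 points for G1, from -0.211 to 2.17 for S and from -1.52 to 1.94 for G2/M. The longer motif TGATGNAAT was in 1 promoter of the genes that fell. No paired analysis was possible because sgRNA numbers do not link sgRNAs of different targets.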
